A study of Danio rerio with 2 samples.

Results

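Transcript levels of 10 genes for endothelial surface, secreted and signaling proteins (clec14a, egfl7, plvapa, plvapb, myct1a, ramp2, she, ecscr, s1pr1 and tm4sf18) were followed in sorted cells of gbf1 mutant zebrafish embryos (Danio rerio) and their siblings. The genes were taken by name from the 21699 Ensembl genes listed in either library, and each name matched 1 gene. For 9 of the 10 the symbol matched as written, and myct1a was matched to the gene listed as MYCT1, while its paralog myct1b has an entry of its own. RNA sequencing was done on kdrl:GFP+ cells, sorted at 44 hours post fertilization from crosses of fish that carried Tg(kdrl:GFP) and 1 copy of the gbf1 allele tsu3994. Embryos were sorted into groups by their look: 1 library was made from normal siblings and 1 from mutants, so every difference compares these 2 libraries and no test between conditions was possible. Embryos of both groups came from the same cross and carried the transgene, in which the promoter of the VEGF receptor gene kdrl drives green fluorescent protein. The labels do not give the number of embryos pooled, the genotypes among the normal siblings or the nature of the lesion.

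Endothelial cells meet blood and tissue through proteins that pass the endoplasmic reticulum and Golgi on their way to the membrane or the matrix. Among them are receptors for circulating signals, lectin-like adhesion proteins, the fibres that span fenestrae and caveolae, and small membrane proteins that modulate growth factor signaling. Gbf1 switches on ARF GTPases of the Golgi, where these proteins are carried onward. The gene she stands apart from the label of the group, since it encodes a cytoplasmic SH2 domain adaptor that is neither on the surface nor secreted.

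The sibling library held 5657525 expected counts and the mutant library 6169373. gbf1 itself was at 3.44 and 6.13 FPKM, fragments per kilobase of gene length scaled by all assigned fragments of the library. The RNA of the libraries was not that of endothelial cells alone, since the globin gene hbae1.2 stood at 159111 FPKM in the sibling library against 118855 FPKM in the mutant. Whether red cells were themselves sorted was not tested. The median gene was itself higher in the mutant library. The median log2 fold, log2((mutant FPKM + 1)/(sibling FPKM + 1)), was 0.27 over the 8641 genes with at least 5 FPKM and 20 expected counts in a library. The median ratio of their counts per library total was 1.21.

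Of the 10 genes, 9 were at least 2-fold higher in the mutant library by log2 fold, none was at least 2-fold lower, and plvapa was neither. Over all 21699 listed genes 5.55% were higher by this limit and 1.35% lower, and over the 8641 genes past the limits these shares were 7.72% and 1.05%. The median log2 fold of the 10 genes was 1.39, with a range of -0.08 to 2.78. Together they held 604 sibling and 1957 mutant expected counts. Divided by the library totals this is a ratio of 2.97, with a 95% counting interval of 2.71 to 3.26. The counting interval of the ratio lay above 1 for 9 genes, as it did for 46.1% of the genes past the limits, and above the median ratio of 1.21 for the same 9, against 23.0%. The intervals hold counting error alone, because PCR copies are not independent molecules and no spread between embryos, sorts or preparations was measured. A difference in the number of endothelial cells sorted and a difference in RNA per endothelial cell cannot be told apart in these bulk libraries.

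Markers of several cell types moved between the same libraries. Of 28 further pan-endothelial genes with a mean of at least 1 FPKM, 15 were past 2-fold higher and none past 2-fold lower. Their median log2 fold was 1.16. Summed over every listed gene of the marker list, low ones included, as for each sum that follows, the level was 223 FPKM in the sibling library against 521 FPKM in the mutant. These 15 were kdrl, flt1, flt4, cdh5, tie1, fli1a, erg, ets1, sox7, sox18, rasip1, cd34, mcamb, esm1 and a gene listed as CLDN5, with log2 folds from 1.13 to 2.48. The other 13 passed 2-fold in neither direction and ran from mcama (log2 fold -0.25) to tek (0.996). Among them were lmo2 (0.02), robo4 (0.18), a further gene listed as CLDN5 (0.28), podxl (0.70), kdr (0.77) and esama (0.79). Over all 14855 genes with that mean, 7.22% were past that limit upward and 1.29% downward. Skeletal muscle markers were lower for 13 of 14 genes (summed 979 and 276 FPKM) and epidermal markers for 6 of 12 (1319 and 859 FPKM). Erythroid markers passed 2-fold for none of 12 (summed 367302 and 279272 FPKM), and neural markers for 1 of 11, which was lower (298 and 292 FPKM). Mural and fibroblast markers were higher for 6 of 12 genes (274 and 389 FPKM) and myeloid markers for 4 of 9 (659 and 945 FPKM). Lens and retina markers were higher for all 4 with a mean of at least 1 FPKM (2.17 and 20.3 FPKM). These 4 were at 0.20 to 0.76 FPKM in the sibling library and reached that mean through the mutant library. The filter thus favoured a higher call for them, and likewise for pdgfrb of the mural and fibroblast markers, at 0.92 and 3.56 FPKM. The smooth muscle gene acta2 had no entry in the sibling table and esamb none in the mutant table, and both were taken as 0 there. The part of these markers in the differences of the 10 genes was not tested.

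**Figure D1:**
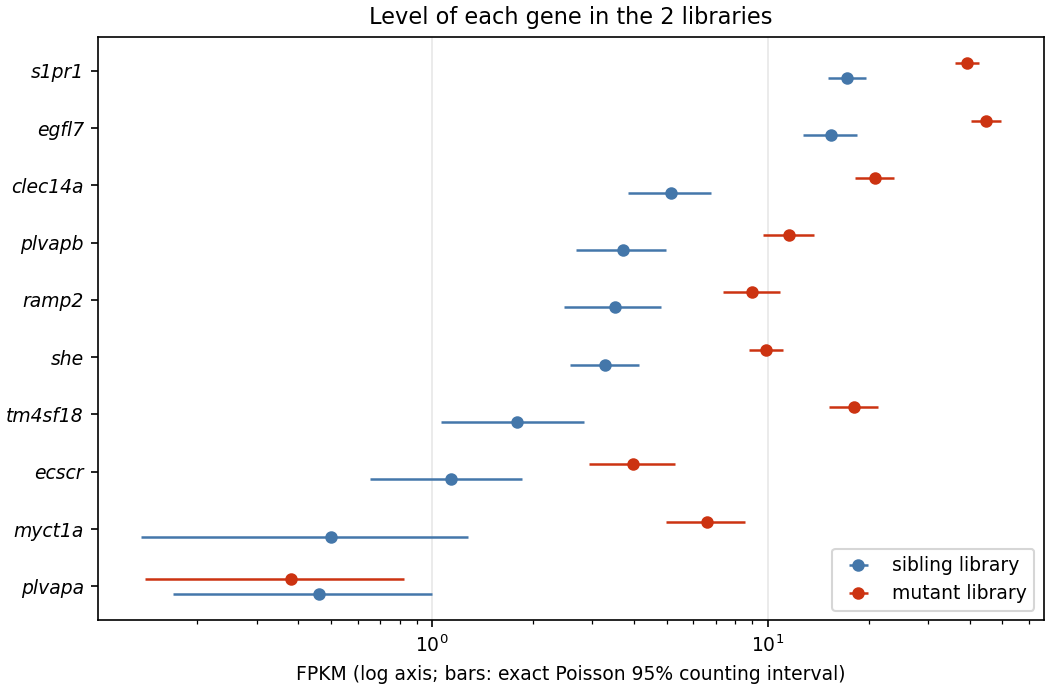
FPKM of each of the 10 genes (log axis) in the sibling (blue) and mutant (red) library, with bars for the exact Poisson 95% counting interval. The bars of the libraries do not overlap for 9 genes, and those of plvapa, at 0.46 and 0.38 FPKM, do.

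The order of the levels was led by the same 3 genes in both libraries. In the sibling library s1pr1 (17.2 FPKM) and egfl7 (15.4 FPKM) stood above clec14a (5.14 FPKM), followed by plvapb, ramp2, she, tm4sf18, ecscr, myct1a and plvapa. Of neighbours in that order, only egfl7 and clec14a had counting intervals that did not overlap. In the mutant library egfl7 (44.7 FPKM) and s1pr1 (39.2 FPKM) again led clec14a (20.9 FPKM). tm4sf18 moved from rank 7 to rank 4, ahead of plvapb, she, ramp2, myct1a, ecscr and plvapa. There the intervals were apart between s1pr1 and clec14a, between tm4sf18 and plvapb, and between ecscr and plvapa. The genes above 0 FPKM numbered 20420 in the sibling library and 20511 in the mutant. Set among these, s1pr1 lay above 86.5% of them in siblings and above 92.9% in mutants, and myct1a lay above 19.1% and 65.2%.

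The receptor genes were among those with the smaller differences. s1pr1 (ENSDARG00000042690) encodes a G protein-coupled receptor for the blood lipid sphingosine 1-phosphate, which restrains sprouting and steadies endothelial junctions. It was at 17.2 FPKM in the sibling library against 39.2 FPKM in the mutant, from 235 and 580 expected counts. The ratio per library total was 2.26 (1.94 to 2.65) and the log2 fold 1.14. ramp2 (ENSDARG00000037895) encodes the membrane partner that makes the calcitonin receptor-like receptor respond to adrenomedullin. It was at 3.50 and 8.98 FPKM, from 38 and 106 counts, a ratio of 2.56 (1.75 to 3.81) with a log2 fold of 1.15. The levels of both receptor genes were thus higher in the mutant library, and their ratios to each other did not differ beyond counting error (s1pr1 over ramp2 0.88, 0.58 to 1.34).

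Among the other genes of the sphingosine 1-phosphate pathway, 3 receptor genes had log2 folds at or above that of s1pr1. Their count ratios did not differ from that of s1pr1 beyond counting error. Of 16 genes of this pathway apart from s1pr1, 4 passed 2-fold upward and none downward. Over all genes with a mean of at least 1 FPKM, the shares were 7.22% and 1.29%. The median log2 fold of the 16 was 0.73. With s1pr1 counted, 5 genes of this list were past the limit as reported, 2 under trimmed-mean (TMM) scaling, median-of-ratios scaling or centring on the median gene, and 0 with a pseudocount of 5 in place of 1. Of the 4, 3 encode further receptors of the lipid: s1pr2 was at 3.49 and 9.85 FPKM and s1pr3a at 0.44 and 2.71 FPKM, from only 3 and 20 counts. s1pr3a reached a mean of 1 FPKM through the mutant library, so the filter favoured a higher call for it. The third, the gene listed as S1PR5, whose partner s1pr5a has its own entry, was at 1.66 and 4.96 FPKM, from 13.78 and 44.35 counts. The other was sgpl1, the lyase that degrades the lipid, at 4.24 and 11.1 FPKM. s1pr5a, at 2.33 and 4.35 FPKM, stayed under the limit. s1pr4 stood at 0.98 FPKM in the sibling library against 0.99 FPKM in the mutant, with a count ratio of 1.01 whose interval was wide (0.39 to 2.65). spns2, the transporter that exports the lipid, was abundant at 38.0 and 53.5 FPKM, and its count ratio of 1.27 (1.17 to 1.38) was below that of s1pr1 (s1pr1 over spns2 1.79, 1.499 to 2.13). rac1a and the more abundant GNAI2 gene, which act below these receptors, were at 17.8 and 33.2 FPKM and at 11.6 and 23.3 FPKM. The sphingosine kinase gene sphk2 was at 5.38 and 9.01 FPKM, whereas sphk1 had 1.41 expected counts in the sibling library and no entry in the mutant table.

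Of the adrenomedullin pathway, 5 genes besides ramp2 were above the floor, a mean of 1 FPKM, with a median log2 fold of 0.57. Of these, 2 passed 2-fold upward, against 7.22% of all genes above the floor. The 2 were the receptor gene listed as CALCRL, at 0.87 and 4.71 FPKM (count ratio 5.39, 2.52 to 13.2), and the less abundant of 2 genes named ADM, at 0.69 and 3.39 FPKM (ENSDARG00000069027). Both were below 1 FPKM in the sibling library and reached the floor through the mutant library. The filter thus favoured a higher call for both. The other ADM gene was at 4.25 and 6.80 FPKM. calcrla, the paralogous receptor gene, had 7 and 9 counts, at 0.72 and 0.85 FPKM. ramp1 was at 0.31 and 0.48 FPKM. The ratio of ramp2 did not differ beyond counting error from that of the CALCRL gene (ramp2 over CALCRL 0.47, 0.18 to 1.14), though the interval is wide. With ramp2 counted, 3 genes of this list were past the limit as reported and 0 with a pseudocount of 5. With that pseudocount a gene below 5 FPKM in the mutant library cannot pass 2-fold upward. The CALCRL gene, at 4.71 FPKM there, and the less abundant ADM gene, at 3.39 FPKM, were thus certain to drop out. The downstream genes gnas and prkacaa were at 15.2 and 20.1 FPKM and at 12.1 and 13.3 FPKM.

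clec14a (ENSDARG00000103533) encodes a C-type lectin-like membrane protein of group 14 that, in human cells, binds the matrix protein multimerin. It was at 5.14 FPKM in the sibling library against 20.9 FPKM in the mutant, from 51 and 225 counts, a ratio of 4.05 (2.97 to 5.60). Its log2 fold of 1.83 was exceeded by 79 of the 8641 genes past the limits. The other genes of this family with enough signal were higher as well: cd248a was at 2.62 and 10.5 FPKM and cd248b at 1.55 and 6.75 FPKM. The multimerin gene mmrn2a was at 2.13 and 6.90 FPKM. These were all 3 genes above the floor besides clec14a, with a median log2 fold of 1.60. Over all genes above the floor, 7.22% passed 2-fold upward. Of the 4 with clec14a, 2 stayed past 2-fold with a pseudocount of 5. clec14a and cd248a did not differ beyond counting error in their ratios (1.02, 0.64 to 1.62). cd248 is known from pericytes and fibroblasts. The mural and fibroblast markers were at 274 and 389 FPKM in sum, with 6 of 12 past 2-fold higher. Any part of such cells in the cd248 values was not tested. Below the floor, mmrn2b was at 0.31 and 1.42 FPKM and thbd, the thrombomodulin gene, at 0.62 and 0.34 FPKM from 5 and 3 counts.

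The paralogs plvapa and plvapb encode the protein of the thin diaphragms across fenestrae and caveolae. plvapb (ENSDARG00000045003) was at 3.70 FPKM in the sibling library against 11.6 FPKM in the mutant, from 43 and 129 counts. Its count ratio was 2.75 (1.93 to 3.98) and its log2 fold 1.42. plvapa (ENSDARG00000076972) was the least abundant of the 10 genes in both libraries, at 0.46 and 0.38 FPKM from 6.35 and 5.76 expected counts, which are fractional because reads were divided between matching genes. Its ratio of 0.92 had an interval of 0.25 to 3.43. That interval holds the ratios of 5 of the other 9 genes, and the ratio of plvapa to plvapb (0.33, 0.08 to 1.33) was not distinguishable from 1 at this depth. plvapa had the fewest counts of the 10 genes over both libraries.

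Most genes of the caveola itself stayed within the 2-fold limits. Of 10 genes for caveolins, cavins and their partners above the floor, none passed 2-fold upward and 1 passed it downward. Their median log2 fold was 0.14, and apart from cav3 the values ran from -0.58 for cavin4a to 0.67 for a gene named CAVIN1. That CAVIN1 gene was at 1.73 and 3.35 FPKM, from 14 and 28 counts. Over all genes above the floor, 7.22% passed 2-fold upward and 1.29% downward. cav1, the main endothelial caveolin gene, was at 2.60 and 2.72 FPKM, from 52 and 54 counts, and plvapb exceeded it in ratio (2.89, 1.67 to 4.99). The gene past the limit was cav3, the muscle caveolin, at 3.12 and 0.32 FPKM, in libraries whose skeletal muscle markers summed to 979 and 276 FPKM. The more abundant of 2 genes named CAVIN2 was at 7.21 and 10.8 FPKM, while pacsin2 and pacsin3, which encode membrane-bending proteins, were at 49.6 and 38.5 FPKM and at 17.3 and 21.4 FPKM.

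Of the small membrane proteins, tm4sf18 and myct1a had the largest log2 folds of the 10 genes, and ecscr had one of the smaller. At 1.14 FPKM in the sibling library, the fold of ecscr is lowered by the added 1 FPKM. Its plain FPKM ratio of 3.49 was below those of myct1a, tm4sf18 and clec14a and above those of the rest. By counts its ratio of 2.75 was also below those of she and egfl7. tm4sf18 (ENSDARG00000060668) encodes a membrane protein of the L6 family that in zebrafish amplifies Vegf signaling in sprouting cells. It was at 1.79 FPKM in the sibling library against 18.1 FPKM in the mutant, from 18 and 142 counts, and only 8 of the 8641 genes past the limits had a larger log2 fold than its 2.78. By FPKM the libraries differed 10.1-fold and by counts 7.23-fold (4.42 to 12.6), because the listed length of the gene, a mean over its transcripts, was 1746 and 1263 bases. myct1a (ENSDARG00000056125) encodes a membrane protein of endothelial and blood stem cells that in the mouse lies downstream of the factor Etv2. It was at 0.50 and 6.58 FPKM, from 4 and 57 counts. The ratio of 13.1 rests on those 4 counts and had an interval of 4.83 to 49.6, while the log2 fold on FPKM + 1 was 2.34. Both genes were thus low in the sibling library. Of the 10 genes, 5 met the limits in the mutant library alone, namely tm4sf18, myct1a, ramp2, plvapb and she. The place of these 5 among the 8641 genes thus rests on the library in which they were higher.

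The relatives of tm4sf18 and myct1a that could be read had lower ratios. Of the 8 genes listed for the family of tm4sf18, itself included, 3 had no match and 1 was in neither library. myct1b, the paralog of myct1a, was at 1.1 and 1.21 FPKM from 5 and 6 counts, and the ratio of myct1a exceeded its own (11.9, 1.87 to 74.6). tm4sf4 was at 14.6 and 12.1 FPKM, and the ratio of tm4sf18 was 8.77 times that of tm4sf4 (4.95 to 16.1). In the RefSeq gene order tm4sf4 is the nearest protein-coding gene on 1 side of tm4sf18. Of the further family members tm4sf21a was at 2.55 and 1.51 FPKM and tm4sf21b at 0.72 and 1.77 FPKM, and both count intervals held 1. Whether their ratios differ from that of tm4sf18 beyond counting error was not tested. None of the 3 relatives of tm4sf18 above the floor passed 2-fold, though 1 did with a pseudocount of 0.1, and their median log2 fold was -0.25. Of all genes above the floor, 7.22% passed 2-fold upward and 1.29% downward.

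ecscr (ENSDARG00000087457), which encodes a small surface protein with roles in endothelial migration, was at 1.14 FPKM in the sibling library against 3.98 FPKM in the mutant. With 16.02 and 48 counts it stayed below 5 FPKM in both and so was not among the 8641 genes past the limits. Its count ratio was 2.75 (1.54 to 5.19) and its log2 fold 1.22. The listed length was 2420 bases in the sibling and 1925 bases in the mutant library, and the ratio by FPKM was 3.49.

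egfl7 (ENSDARG00000100657) encodes a secreted protein that endothelial cells lay down in the matrix around growing vessels, and its gene hosts the endothelial microRNA miR-126. It was at 15.4 FPKM in the sibling library against 44.7 FPKM in the mutant, from 119 and 376 counts. With a ratio of 2.90 (2.35 to 3.59) and a log2 fold of 1.48, it was the most abundant of the 10 genes in the mutant library. Its relative egfl6 was at 55.0 and 43.7 FPKM, and the ratio of egfl7 was 3.66 times that of egfl6 (2.86 to 4.70). agpat2, which adjoins egfl7 in the RefSeq gene order, was at 0.84 and 1.35 FPKM. Among genes for proteins with which Egfl7 is known to act, the 2 genes named NOTCH1 were at 7.83 and 15.0 FPKM and at 23.8 and 31.4 FPKM. loxl2a, a lysyl oxidase gene, was at 6.32 and 24.3 FPKM and loxl2b, listed as LOXL2, at 3.07 and 4.90 FPKM. Of the 6 genes of this list besides egfl7, loxl2a was the 1 that passed 2-fold, against 7.22% upward of all genes above the floor.

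she (ENSDARG00000087956) encodes an SH2 domain adaptor of the Shb family that is transcribed in zebrafish vessels. It was at 3.28 FPKM in the sibling library against 9.91 FPKM in the mutant. The expected counts were 73.3 and 288, a ratio of 3.62 (2.79 to 4.74), which is larger than the FPKM ratio of 3.02 because the listed length was 3831 and 4578 bases. The single other adaptor gene of this family with a match, shda, was at 0.86 and 1.29 FPKM from 8 and 13 counts.

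**Figure D2:**
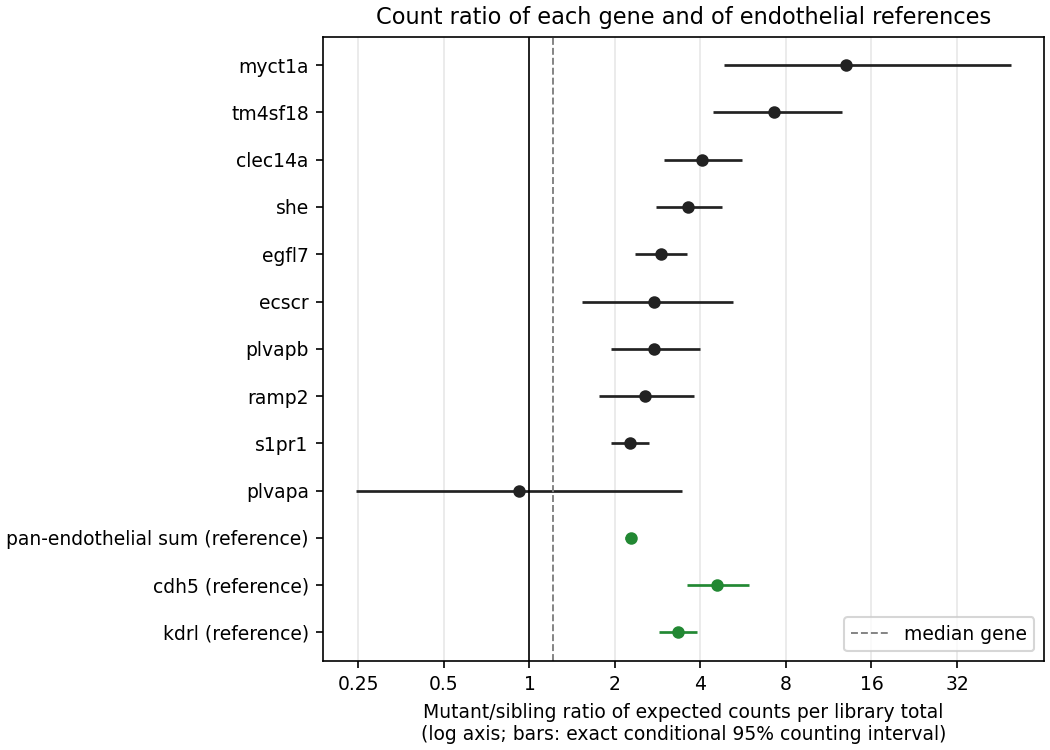
Mutant over sibling ratio of expected counts per library total (log axis) for the 10 genes (black) and for kdrl, cdh5 and the sum over 28 further pan-endothelial genes (green), with exact conditional 95% counting intervals. 9 of the 10 genes lie above the median gene (dashed, 1.21), and myct1a and tm4sf18 lie highest.

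Compared among themselves, the genes did not all differ by the same factor. Of the 45 pairs among the 10, the ratio of ratios had an interval that excluded 1 for 19, with intervals not adjusted for the number of pairs. In 15 of these 19 pairs myct1a or tm4sf18 was the higher gene. myct1a exceeded the 8 genes other than tm4sf18, from clec14a (clec14a over myct1a 0.31, 0.08 to 0.90) to plvapa (plvapa over myct1a 0.07, 0.01 to 0.41). myct1a and tm4sf18 could not be told apart (1.81, 0.56 to 7.64). tm4sf18 in turn exceeded egfl7 by 2.50 (1.45 to 4.52) and she by 2.0 (1.13 to 3.70), while clec14a over tm4sf18 was 0.56 with an interval that held 1 (0.30 to 1.02). s1pr1 lay below clec14a (0.56, 0.39 to 0.79) and she (0.63, 0.46 to 0.85). Between ramp2, plvapb, ecscr and egfl7 no pair was separated.

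Set against other endothelial genes, 5 of the 10 had higher ratios. The 28 further pan-endothelial genes had a summed count ratio of 2.27 (2.18 to 2.37), and the genes that exceeded it beyond counting error were myct1a, by 5.75 (2.13 to 21.9), tm4sf18 by 3.19 (1.94 to 5.54), clec14a by 1.78 (1.305 to 2.47), she by 1.59 (1.22 to 2.10) and egfl7 by 1.28 (1.03 to 1.59). The ratio of s1pr1 to the sum was 0.996 (0.85 to 1.17). This count depends on the reference. Against kdrl, at 6.38 and 21.3 FPKM with a ratio of 3.33 (2.86 to 3.89), myct1a and tm4sf18 were higher and s1pr1 was lower. Against cdh5, the VE-cadherin gene, at 1.96 and 9.03 FPKM with a ratio of 4.57 (3.58 to 5.91), myct1a alone was higher and s1pr1, ramp2, plvapa, plvapb and egfl7 were lower. Against the sum without lmo2 and tal1, which blood cells also use, s1pr1 was lower (0.83, 0.70 to 0.97), egfl7 was no longer separated (1.06, 0.85 to 1.32), and myct1a, tm4sf18, clec14a and she stayed higher. myct1a was higher than each of these 4 references, but against cdh5 its interval only just cleared 1 (2.86, 1.01 to 11.1). All 4 comparisons rest on the same 4 sibling counts of myct1a. The references overlap as well, since kdrl and cdh5 are among the genes summed. The pan-endothelial genes with a log2 fold nearest to the median of the 10, over these 2 libraries, were cd34 (1.38), sox7 (1.35) and erg (1.21).

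**Figure D3:**
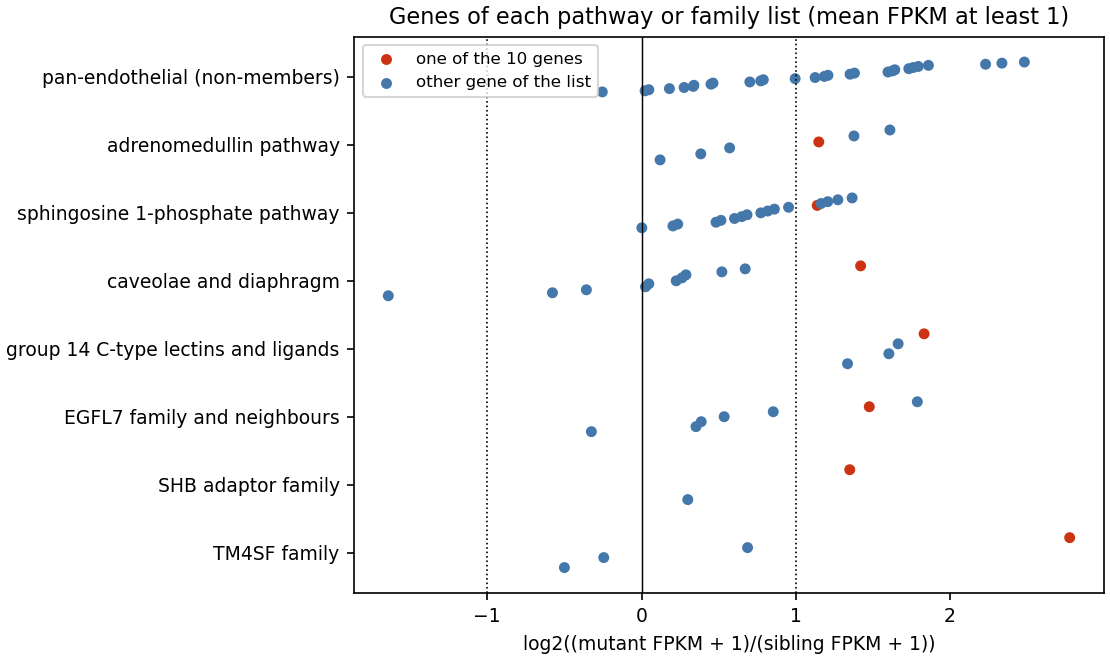
Log2 fold of each gene with a mean of at least 1 FPKM, by pathway or family list, with the 10 genes in red and other genes in blue, and dotted lines at the 2-fold limits. The caveolins, cavins and their partners have a median of 0.14, with cav3 at -1.64 and plvapb at 1.42. The relatives of tm4sf18 lie from -0.50 to 0.69, against its 2.78.

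The genes beside the 10 in the genome passed 2-fold upward at about the share of all listed genes. The assembly GRCz12tu is not the build of the tables and was used for names, order and overlaps only. In its RefSeq gene order 20 nearest protein-coding neighbours were found, and 17 had 1 gene in the tables. Of these 17, 1 passed 2-fold upward, near the 5.55% of all listed genes, and none downward. Their median log2 fold was 0.24. No floor was set for them. Thus abcc6b.2, sstr1a, timd4, esr1 and chrnb2, below 1 FPKM in both libraries, could not pass 2-fold on FPKM + 1. The neighbour past the limit was ezh1, a Polycomb methyltransferase gene beside ramp2, at 1.34 and 4.95 FPKM. Of the 10 genes, 7 overlap the span of another RefSeq gene in that assembly. These overlaps were not checked in the build of the tables. The library protocol describes no strand mark, so reads in any shared stretches cannot be assigned by strand. For 4 of the 7 genes the overlapping gene is named and listed. syne1a, listed as SYNE1, which overlaps myct1a, was at 6.14 and 13.3 FPKM with a count ratio of 3.37. sec23a, which overlaps clec14a, was at 10.8 and 15.4 FPKM, tuft1a, which overlaps she, at 4.14 and 6.01 FPKM, and ppp3ca, which overlaps ecscr, at 5.28 and 3.0 FPKM. The part of any shared reads in the differences was not tested.

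Listed lengths moved for several of the 10 genes. Of the 6 with 2 annotated transcripts, 4 had listed lengths more than 10% apart between the libraries, a step seen for 20.5% of the 4465 genes with 2 transcripts and a mean of at least 1 FPKM. From the sibling to the mutant table, length decreased by 27.7% for tm4sf18, decreased by 20.5% for ecscr and decreased by 11.6% for plvapb. For she it was 19.5% higher. The listed lengths of ecscr and tm4sf18 in the sibling library rest on 16.02 and 18 counts. The 4465 genes were not matched to the 10 for counts. The tables give no value per transcript, so whether the use of transcripts differed was not tested.

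**Figure D4:**
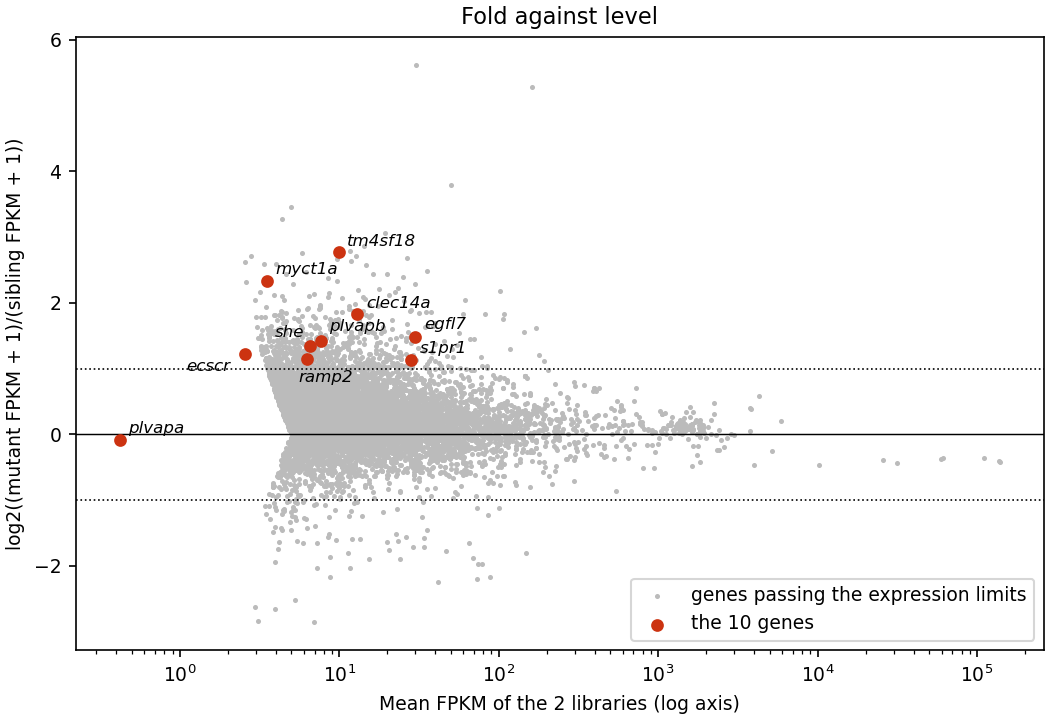
Log2 fold against mean FPKM (log axis) for the 8641 genes past the limits (grey) and the 10 genes (red), with dotted lines at the 2-fold limits. tm4sf18 at 2.78 and myct1a at 2.34 lie near the upper edge, and plvapa lies at the far left near 0.

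The count of 9 depended on how libraries were scaled. Once the folds were centred on the median gene, or counts were scaled by TMM or median of ratios, 6 of the 10 remained at least 2-fold higher, and s1pr1, ramp2 and ecscr dropped below the limit with log2 folds of 0.80 to 0.97. clec14a, egfl7, myct1a and tm4sf18 were past 2-fold under all 9 choices of scaling, length and pseudocount, with tm4sf18 ranging from 1.77 to 3.27, myct1a from 1.07 to 3.48, clec14a from 1.35 to 2.0 and egfl7 from 1.198 to 1.62. plvapa was below 0 under each of them, by at most 0.33. All of these values rest on the same 6.35 and 5.76 expected counts, so the constant sign is no separate support. At 0.46 FPKM in the sibling library, plvapa could not have passed 2-fold downward on FPKM + 1.

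**Figure D5:**
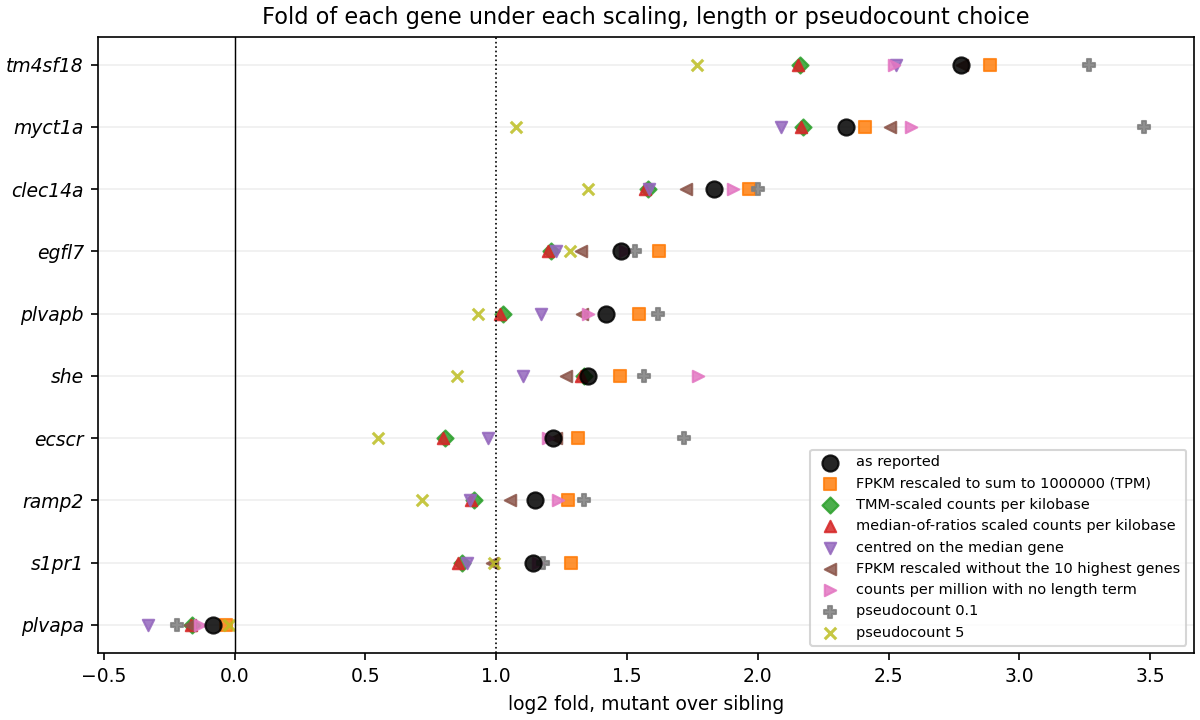
Log2 fold of each of the 10 genes as reported (black) and under 8 other choices of scaling, length and pseudocount, with a dotted line at the 2-fold limit. The 4 genes clec14a, egfl7, myct1a and tm4sf18 stay past the limit under all choices. plvapa stays below 0, on 6.35 and 5.76 expected counts throughout.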

How the data were processed

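Each deposited table holds 1 library, with length, expected count and FPKM of every Ensembl gene above 0. GRCz10, RSEM, Bowtie2, BWA and bcl2fastq 2.16 are named in the submitters' processing notes, but not their roles. Expected counts are the authors' unscaled estimates of fragments, as deposited. The FPKM values deposited by the authors carry no scaling between libraries. The annotation release is not given in the sources used here. A gene absent from 1 table was taken as 0 there.

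Folds used FPKM + 1, which understates changes of low genes. Count ratios used rounded expected counts per library total with exact conditional binomial 95% intervals, and ratios of ratios exact conditional intervals (scipy 1.17.1). TMM and median-of-ratios factors came from edgeR 4.0.16 and DESeq2 1.42.0, applied to counts per kilobase of the mean listed length. The interval steps were run on simulated Poisson counts, the model that the intervals assume. Such a run checks the calculation only, and not the error of these libraries. With 1 library per group no replicate could be compared or left out. The symbol table covered 19802 of 21699 genes and gives many genes the human symbol without a paralog letter. A list entry was matched as written or, failing that, without its letter.

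The 10 genes, the lists and the rule for naming genes (the 10, list genes past 2-fold, up to 3 of the others with the most counts, and the 3 pan-endothelial genes nearest in fold) were chosen with earlier results of these data known. Other genes named were chosen after their values were seen.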

Additional observations from a re-analysis of the deposited data

How the results depend on the processing

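With 1 library per group, no replicate could be left out, and precision is limited by counts: 4 in the sibling library for myct1a and about 6 in each for plvapa. No paired analysis was possible because each group has 1 library. Of 80 values for the 10 genes under the 8 other choices of scaling, length and pseudocount, 73 moved from the reported log2 fold by less than the distance between the gene's count ratio and the bound of its counting interval on that side, on the log2 scale. The other 7 moved further, and no value changed sign. That distance is wide for genes with few counts. myct1a, from 1.07 to 3.48, and ecscr, from 0.55 to 1.72, moved by less than it under every choice. ramp2 and ecscr did so even where they fell below 2-fold. The 73 is thus no measure of how stable the folds were. With a pseudocount of 5, 4 of the 10 genes were at least 2-fold higher. Of the listed pathway genes outside the 10, 12 were then higher and 0 lower, against 25 and 1 as reported. With a pseudocount of 0.1 these counts were 9, 31 and 1. Genes below 5 FPKM in both libraries, such as ecscr and cav3, could not pass 2-fold in either direction with a pseudocount of 5.

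Over all genes past the limits, 667 were higher and 91 lower as reported. The counts were 324 and 163 with TMM, 320 and 173 with median of ratios, 341 and 173 once centred, and 193 and 40 with a pseudocount of 5. Without the 10 highest genes 143 were lower. With no filter there were 1205 and 292, and with a mean FPKM of at least 1 there were 1073 and 192. Higher genes as a share of all calls went from 88.0% to 66.5% with TMM, 64.9% with median of ratios, 66.3% once centred and 77.6% without the 10 highest genes. The median gene shifted by -0.24 with TMM, -0.25 with median of ratios or centring, -0.14 without the 10 highest genes, -0.10 with a pseudocount of 5 and 0.13 in TPM.

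Against the pan-endothelial sum 5 of the 10 genes were higher and 0 lower. Against references chosen after seeing the data, 4 were higher and 1 lower without lmo2 and tal1, 2 and 1 against kdrl, and 1 and 5 against cdh5.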
